A study of Mus musculus with 4 samples.

Results

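The acrosome and sperm-egg fusion genes are 37 mouse genes, chosen by name with earlier results of these data known. Their protein products form the acrosome, act in the sperm's passage through the egg's coats, or join the sperm and egg membranes. The mRNAs of these genes were compared between 2 TSSK2-IP and 2 control IgG-IP libraries to ask whether they were found in TSSK2 complexes. All 37 of 37 were present among the 21936 genes of the count table, and all 37 were among the 14722 genes that passed the filter on low counts and were tested. Germ cells were released from the testes of adult C57BL/6 mice and cross-linked with paraformaldehyde. After sonication, the pelleted fraction of the lysate was incubated with beads carrying an anti-TSSK2 antibody (TSSK2-IP) or mouse IgG (control IgG-IP). No genotype or treatment other than the antibody set the groups apart in the labels. The cells were a suspension of all germ cell stages rather than sorted elongating spermatids, and whether the replicates came from separate animals was not stated, so p-values measure only the spread between these libraries, which may be technical.

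TSSK2 is a testis-specific serine kinase of the late chromatoid body (late-CB), a cytoplasmic granule of elongating spermatids that holds RNA-binding proteins. The acrosome is a secretory vesicle that grows from the Golgi apparatus of round spermatids, flattens over the nucleus and is released when the sperm meets the egg. Its proteases and hyaluronidases act on the zona pellucida and cumulus matrix, its membranes carry the proteins that bind and fuse with the egg, and many of its mRNAs are made in round spermatids before chromatin condensation stops transcription.

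Sequencing gave 4158034 and 4491749 gene counts for TSSK2-IP, and 9858941 and 3938922 for the control libraries. Expression is given as normalized CPM, which is counts scaled by edgeR to a common library size (CPM, with TMM factors), and 3 counts equalled 0.468 to 0.689 normalized CPM. The TMM factors were 1.17 and 1.18 for TSSK2-IP, and 0.65 and 1.12 for control replicates 1 and 2. A low factor raises normalized CPM, so levels in control replicate 1 stand higher than their share of its counts. The TSSK2-IP libraries were alike and the control libraries were not. Over all genes tested, replicates differed with an SD of 0.47 (log2) for TSSK2-IP and 1.08 for the controls, and 4.95% and 40.8% of genes, respectively, were at least 2-fold apart. The main fold changes are therefore also given with each control library alone. The summed level of 7 elongating spermatid markers was 3122 to 4981 normalized CPM and that of 8 spermatocyte markers 1052 to 1373, while markers of spermatogonia, Sertoli cells, Leydig cells, myoid cells, macrophages and red blood cells summed to at most 57.4 normalized CPM per list in any library. Control replicate 1 also stood apart in these sums. Its Sertoli cell markers summed to 19.5 normalized CPM, beside 40.5 to 56.8 in the other libraries, and its Leydig cell markers to 16.1, beside 35.8 to 38.4. After TMM scaling, its elongating spermatid and spermatocyte sums were the highest of the 4 libraries, at 4981 and 1373. Its low TMM factor of 0.65 raises these sums, so they do not show a larger share of such RNA among its counts. The part of these differences in the results was not tested. None of the tested marker genes was called (0 genes), and no listed marker was at 0 in all libraries.

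The acrosome and fusion mRNAs were detected in every library, with at least 34 counts each, and were not called different between TSSK2-IP and control IgG-IP. An mRNA counted as called when the groups were 2-fold or more apart (log2 fold change of 1 or more, or -1 or less) and the Benjamini-Hochberg adjusted p of edgeR's quasi-likelihood test, written here as "edgeR, adjusted p", did not exceed 0.05. SE is the standard error of the log2 fold change. By this rule 0 of 37 were higher in TSSK2-IP, against 0.693% of all genes tested, and 0 of 37 were lower, against 0%. The median log2 fold change was -0.06, beside -0.02 over all genes tested, with 17 of the 37 above 0 and 20 below. Their quartiles were -0.46 and 0.17, and 35 of 37 (94.6%) lay between -1 and 1, as did 79.0% of all genes tested. At an unadjusted p under 0.05, 1 of the 37 differed in edgeR (13.2% of all genes tested did). With DESeq2 0 were called, where 152 of the 14722 genes tested were called higher and 7 lower. In that fit 2 of the 37 had an unadjusted p under 0.05, and the share over all genes was not counted. The lowest adjusted p in edgeR was 0.351. The standard error of the log2 fold change ranged from 0.39 to 0.94 with a median of 0.44, so a p above the threshold does not show that the levels were equal. In a bulk precipitate, fewer cells that hold an mRNA and less of it per cell cannot be told apart, and no input library was analysed here.

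**Figure D1:**
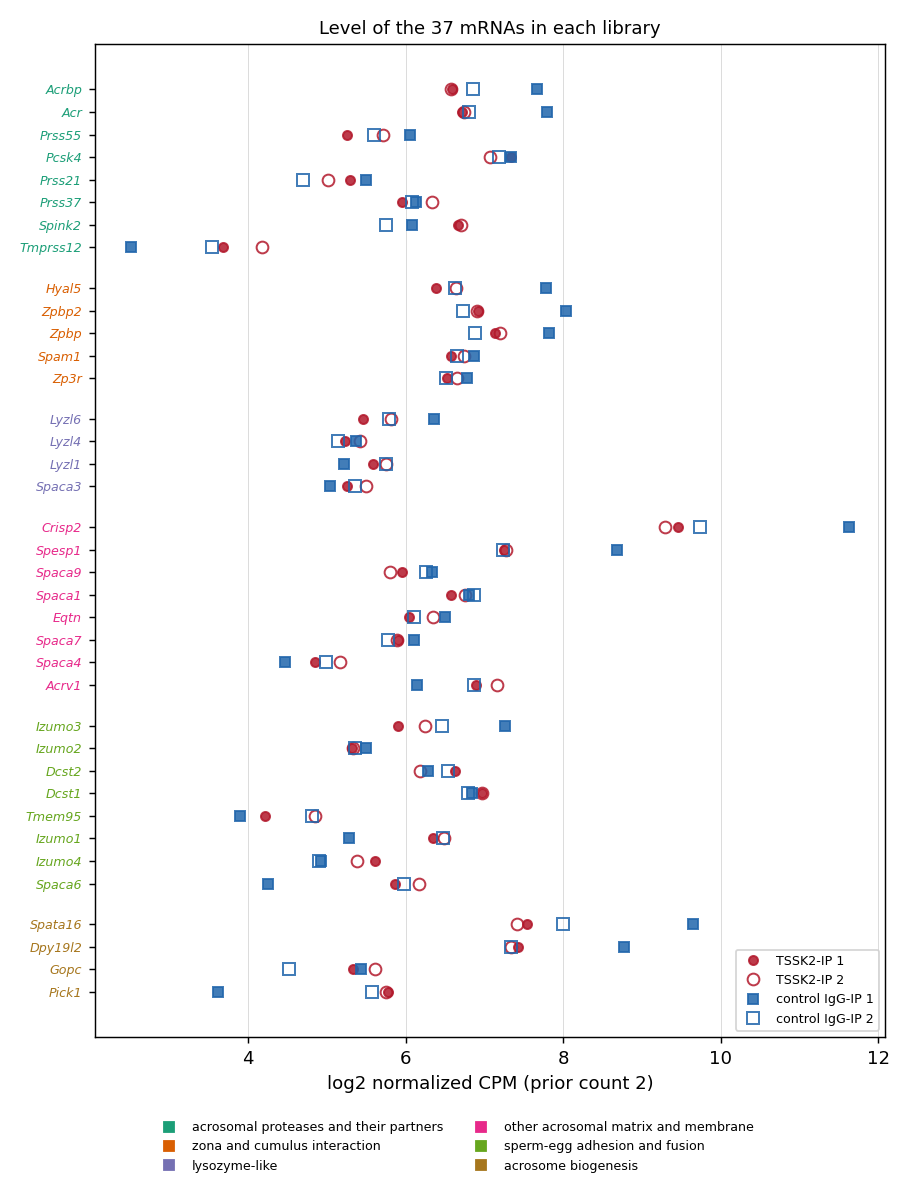
Level of each of the 37 mRNAs in each library, as log2 normalized CPM with a prior count of 2, ordered within role by fold change; circles are TSSK2-IP and squares control IgG-IP libraries, filled for replicate 1 and open for replicate 2. The circles of a gene lie close together, while the squares of Crisp2, Spata16, Pick1 and Spaca6 lie far apart.

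Per kilobase of annotated exon, most of these mRNAs stood high among the genes tested. Their median level in TSSK2-IP was 45.3 normalized CPM per kb, beside 4.19 for all genes tested. They stood as high in control IgG-IP, at a median of 48.9, beside 3.39 for all genes tested. In TSSK2-IP 27 of 37 were above the 90th percentile. Crisp2 was the most abundant of them at 236 ± 17.8 normalized CPM per kb (SD, n = 2), followed by Spink2 at 130 ± 2.48, Spata16 at 84.0 ± 5.42 and Spaca9 at 78.5 ± 5.88. The step from Crisp2 to Spink2 was larger than either SD, whereas Spata16 and Spaca9 differed by less than the sum of theirs. The lowest per kb were Tmprss12 at 9.22 ± 2.27, Spaca6 at 9.14 ± 1.35, Pick1 at 8.18 ± 0.111 and Gopc at 4.02 ± 0.550 normalized CPM per kb, the first 3 of which were not separated beyond their spread. Annotated exons span 7067 bases in Spaca6, 6573 in Pick1 and 10958 in Gopc. Their longest coding transcripts have 1073, 2054 and 4317 bases, so this divisor lowers their rank. Without it, Spaca6 had a mean of 64.6 normalized CPM in TSSK2-IP, beside a median of 73.1 for the 37. Together the 37 mRNAs took 0.414% and 0.425% of all counts in TSSK2-IP and 0.505% and 0.416% in control IgG-IP. After TMM scaling they summed to 3568 and 3630 normalized CPM in TSSK2-IP and to 7776 and 3767 in control IgG-IP. Crisp2 alone made up 19.6% and 17.3% of their counts in TSSK2-IP and 40.9% and 22.7% in the controls.

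The acrosomal proteases and their partners, 8 genes, had a median log2 fold change of -0.02, with 4 above and 4 below 0. Spink2, a Kazal-type inhibitor that restrains acrosomal proteases, had 100.8 and 103.5 normalized CPM in TSSK2-IP and 67.3 and 53.3 in control IgG-IP. Both TSSK2-IP libraries lay above both controls. The log2 fold change of Spink2 was 0.76 (SE 0.42, edgeR, adjusted p = 0.432), the smallest p of the group. Leaving out control replicate 1 gave 0.94 and leaving out control replicate 2 gave 0.55. Tmprss12, a transmembrane serine protease, had the highest log2 fold change of all 37, with 12.4 and 17.7 normalized CPM in TSSK2-IP and 5.30 and 11.3 in the controls. The groups did not overlap, but the higher control was close to the lower TSSK2-IP library. The fold change of Tmprss12 was 0.88 on the log2 scale (SE 0.49, edgeR, adjusted p = 0.437), and it moved from 1.46 without control replicate 2 to 0.43 without control replicate 1.

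Acr encodes acrosin, the main trypsin-like protease of the acrosome, and Acrbp encodes the protein that binds its precursor. Acr had 104 and 107 normalized CPM in TSSK2-IP and 221 and 111 in control IgG-IP, and Acrbp had 95.8 and 95.3 in TSSK2-IP and 202 and 116 in control IgG-IP. In both genes control replicate 1 stood apart and the other 3 libraries were close. Their log2 fold changes were -0.65 and -0.74. In the annotation 29.8% of the exon bases of Acrbp are shared with Gm44597 on the same strand, which is not in the count table. The remaining 4 were nearer to 0: Prss55 at -0.35, Pcsk4, a proprotein convertase of germ cells, at -0.05, Prss21, the membrane-anchored protease testisin, at 0.01, and Prss37, a protease-like protein, at 0.05.

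Among the 5 genes of zona and cumulus interaction, 0 were above 0 and 5 below, and the median was -0.26. Without control replicate 1 the median was 0.08 and 4 of 5 were above 0. Hyal5, a sperm hyaluronidase that loosens the cumulus matrix, had 83.1 and 99.3 normalized CPM in TSSK2-IP and 219 and 98.3 in control IgG-IP. Control replicate 2 lay between the TSSK2-IP libraries and control replicate 1 lay 2.23-fold above it. The log2 fold change of Hyal5 was -0.80 (SE 0.51, edgeR, adjusted p = 0.491), and it was -0.10 without control replicate 1. Zpbp2, a zona pellucida binding protein of the acrosomal matrix and the most abundant of these mRNAs per kilobase, had 121 and 120 normalized CPM in TSSK2-IP and 262 and 105 in the controls. Both TSSK2-IP libraries lay between the controls, as they did for its paralogue Zpbp and for Zp3r, another zona-binding protein of the matrix. The log2 fold change was -0.61 for Zpbp2, -0.26 for Zpbp and -0.06 for Zp3r, and each was above 0 without control replicate 1.

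Hyal5 and Spam1 are neighbouring genes on the plus strand of chromosome 6 (GRCm38, Spam1 from 24791188 to 24801048 and Hyal5 from 24857997 to 24891958), 56.9 kb apart, and both encode membrane-anchored sperm hyaluronidases. They are shown because their mRNAs were sequenced side by side and behaved differently in the control libraries. The coding windows below, read from the reference genome, span an exon junction, at 24796973 to 24797005 joined to 24797801 to 24797858 in Spam1 and at 24877051 to 24877083 joined to 24877861 to 24877918 in Hyal5. Capitals mark 31 bases that are identical in both, the longest identical run between any pair of the 37 mRNAs.
Spam1: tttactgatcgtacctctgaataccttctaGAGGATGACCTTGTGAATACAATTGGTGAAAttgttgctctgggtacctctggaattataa
Hyal5: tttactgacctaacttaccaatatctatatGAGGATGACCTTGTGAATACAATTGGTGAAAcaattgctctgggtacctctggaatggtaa
In these 91 bases 74 positions were identical, and the aligned transcripts were 71.8% identical over 1550 bases, so the shared run is much shorter than a read pair and the transcripts can be told apart elsewhere. Spam1 had 94.9 and 107 normalized CPM in TSSK2-IP and 117 and 100 in control IgG-IP. Its control libraries were only 1.17-fold apart, and its log2 fold change was -0.10.

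The 4 lysozyme-like genes encode acrosomal relatives of the c-type lysozymes, and they had a median log2 fold change of 0.12 with 3 above 0 and 1 below. Lyzl6 had 43.5 and 55.8 normalized CPM in TSSK2-IP and 81.8 and 54.9 in control IgG-IP. Control replicate 2 again fell between the TSSK2-IP libraries. For Lyzl6 the log2 fold change was -0.46 (SE 0.42, edgeR, adjusted p = 0.626). The log2 fold change of Lyzl4 was 0.06, that of Lyzl1 was 0.17 and that of Spaca3 was 0.17. In all 4 genes the libraries of both groups overlapped.

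Of the 8 genes of other acrosomal matrix and membrane proteins, 2 were above 0 and 6 below, with a median of -0.15. Crisp2, a cysteine-rich secretory protein found in the acrosome and the sperm tail, lies on chromosome 17 (GRCm38, 40764020 to 40807003). It had 3376 and 3306 counts in TSSK2-IP and 20372 and 3724 in control IgG-IP, or 700 and 629 against 3179 and 856 normalized CPM. Both TSSK2-IP libraries lay below both controls, but control replicate 1 was 3.71-fold above control replicate 2, the largest such ratio among the 37. For Crisp2 the log2 fold change was -1.60 (SE 0.94, edgeR, adjusted p = 0.459), the lowest of the 37. Without control replicate 1 it was -0.36, and without control replicate 2 it was -2.31.

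The other matrix and membrane mRNAs ran from -0.87 to 0.49. Spesp1, a protein of the equatorial segment, had 151 and 155 normalized CPM in TSSK2-IP and 409 and 151 in control IgG-IP, so that its log2 fold change of -0.87 became 0.02 without control replicate 1. Spaca9 and Spaca1, the latter a membrane protein needed to shape the acrosome, lay below both controls in both TSSK2-IP libraries, with log2 fold changes of -0.42 and -0.18. Their controls were nearly equal, at 80.2 and 76.3 normalized CPM for Spaca9 and 112 and 117 for Spaca1. Eqtn, the acrosomal membrane protein equatorin, was at -0.12, Spaca7 at -0.06 and Spaca4 at 0.27. Acrv1, the matrix protein SP-10, had 118 and 143 normalized CPM in TSSK2-IP and 70.2 and 116 in the controls, with a log2 fold change of 0.49.

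The 8 genes of sperm-egg adhesion and fusion had a median log2 fold change of 0.16, with 6 above 0 and 2 below. Without control replicate 1 the median was -0.04 and 3 of 8 were above 0. Izumo1, the sperm protein that binds its receptor JUNO on the egg, had 80.6 and 89.2 normalized CPM in TSSK2-IP and 38.5 and 88.5 in control IgG-IP. Only control replicate 1 was apart from the rest, and the log2 fold change of 0.42 became -0.05 without it. Spaca6, which is also required for fusion, had 57.8 and 71.4 normalized CPM in TSSK2-IP and 18.7 and 62.5 in the controls. Its log2 fold change was 0.68 with both controls, 0.05 without control replicate 1 and 1.74 without control replicate 2. Of the exon bases of Izumo1, 21.9% are shared on the same strand with Rasip1, which is in the count table, so the split of its reads depends on the counting.

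Within the Izumo family the mRNAs did not run one way. Izumo3 had 59.5 and 75.5 normalized CPM in TSSK2-IP and 153 and 87.5 in control IgG-IP, below both controls. For Izumo3 the log2 fold change was -0.83 (SE 0.46, edgeR, adjusted p = 0.428), the smallest p of the fusion group, and -0.37 without control replicate 1. Izumo4 had 48.3 and 41.5 normalized CPM in TSSK2-IP and 30.1 and 29.4 in control IgG-IP, above both controls, with a log2 fold change of 0.59 that was 0.61 and 0.52 with either control alone. Izumo2 was at -0.11. The fusion factors Dcst1, Dcst2 and Tmem95 were at 0.16, 0.01 and 0.16. Dcst1 and Dcst2 lie on opposite strands of chromosome 3 and their spans overlap by 3279 bases.

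The 4 genes of acrosome biogenesis had the widest spread, with a median log2 fold change of -0.21, 2 above 0 and 2 below. Spata16, which encodes a Golgi and proacrosomal vesicle protein, lies on chromosome 3 (GRCm38, 26637620 to 26983212). It had 186 and 169 normalized CPM in TSSK2-IP and 800 and 255 in control IgG-IP, below both controls. For Spata16 the log2 fold change was -1.57 (SE 0.68, edgeR, adjusted p = 0.351), the smallest p of all 37, and the value was -0.52 without control replicate 1 and -2.22 without control replicate 2. Dpy19l2, the inner nuclear membrane protein that anchors the acrosome to the nucleus, had 171 and 161 normalized CPM in TSSK2-IP and 438 and 161 in the controls. Its log2 fold change of -0.85 was 0.05 without control replicate 1.

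Gopc and Pick1 encode partner proteins that move vesicles from the Golgi to the acrosome, and the control libraries parted in opposite directions for them. Pick1 had 54.3 and 53.3 normalized CPM in TSSK2-IP and 11.9 and 47.3 in control IgG-IP. Control replicate 1 was 3.99-fold below control replicate 2. The log2 fold change of Pick1 was 0.87 with both controls, 0.19 without control replicate 1 and 2.13 without control replicate 2. Gopc had 39.8 and 48.3 normalized CPM in TSSK2-IP and 42.8 and 22.5 in the controls, so here control replicate 2 was the library apart. Its log2 fold change was 0.43, and it was 0.97 without control replicate 1 and -0.00457 without control replicate 2. In Pick1, 18.6% of exon bases are shared on the same strand with Gm49486, which is in the count table.

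**Figure D2:**
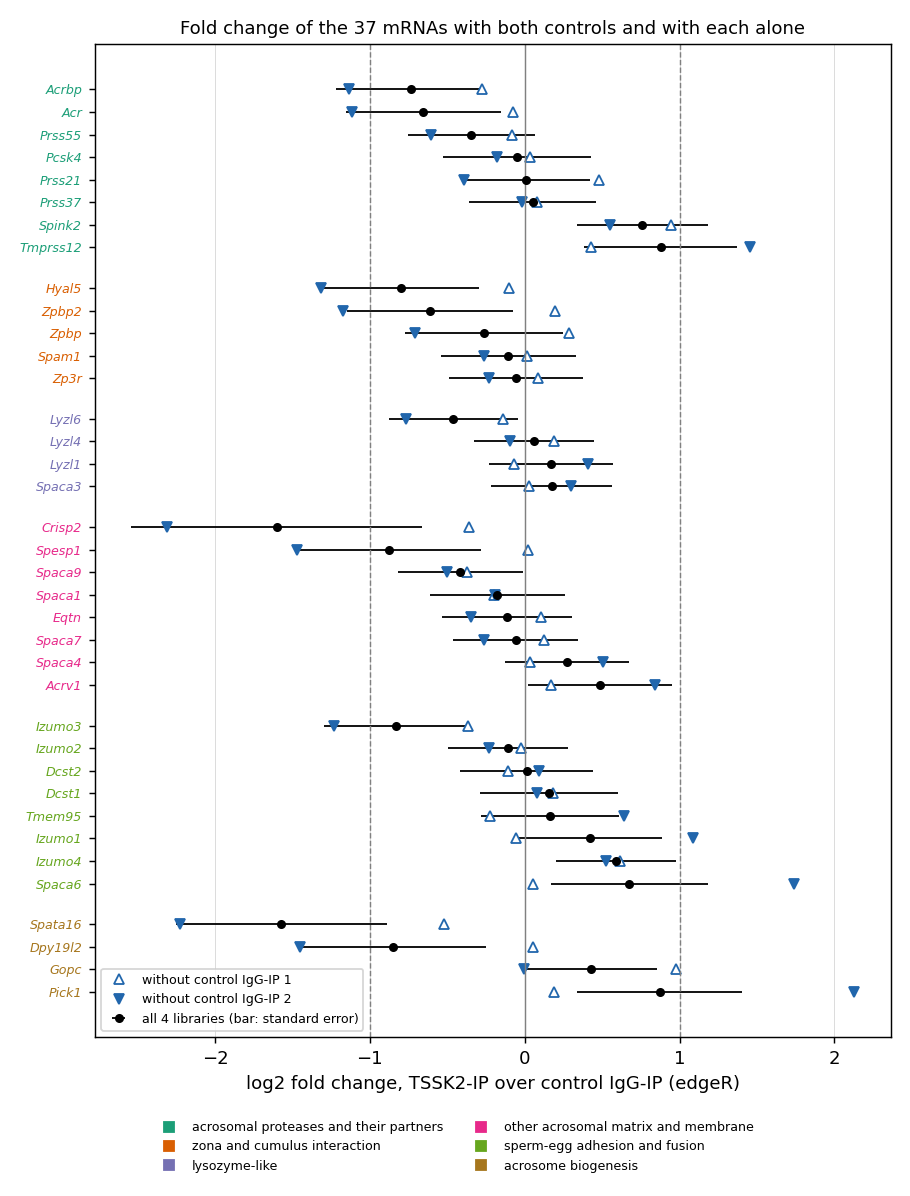
Log2 fold change of TSSK2-IP over control IgG-IP for the 37 mRNAs from edgeR; black points with standard errors use all 4 libraries, open triangles leave out control IgG-IP replicate 1 and filled triangles leave out control IgG-IP replicate 2, and dashed lines mark -1 and 1. All open triangles lie between -1 and 1, while filled triangles reach -2.31 for Crisp2 and 2.13 for Pick1.

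The order of the 4 libraries was read gene by gene. Both TSSK2-IP libraries lay above both controls for 6 mRNAs (Acrv1, Dcst1, Izumo4, Pick1, Spink2 and Tmprss12), or 16.2%, beside 27.3% of all genes tested. They lay below both for 8 (Acr, Acrbp, Crisp2, Izumo2, Izumo3, Spaca1, Spaca9 and Spata16), or 21.6%, the share found over all genes tested, 21.6%. They lay between the controls for 6 (16.2%, beside 24.1%), and the other 17 followed none of these orders. None of these shares was tested against that of all genes.

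The position of an mRNA depended on which control it was set against. Against control replicate 2, the mean of the TSSK2-IP libraries on the log2 CPM scale differed by -0.52 (Spata16) to 0.95 (Gopc), with a median of 0.02 and an SD of 0.32, and 0 of 37 were at least 2-fold apart, beside 13.03% of all genes tested. Spink2 at 0.93 and Izumo4 at 0.60 followed Gopc. Against control replicate 1, the same libraries differed by -2.26 (Crisp2) to 2.15 (Pick1), with an SD of 0.98, and 13 of 37 (35.1%, beside 40.5%) were at least 2-fold apart, 4 higher and 9 lower. The medians of the 6 role groups lay between -0.04 and 0.12 against control replicate 2, and between -0.68 for acrosome biogenesis and 0.35 for adhesion and fusion against control replicate 1.

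Calls moved in the same way. Without control replicate 2, edgeR called 4 of 37 higher (Izumo1, Pick1, Spaca6 and Tmprss12) and 9 lower (Acr, Acrbp, Crisp2, Dpy19l2, Hyal5, Izumo3, Spata16, Spesp1 and Zpbp2), where 19.4% and 17.9% of all genes tested were called, and 24 of 37 had an unadjusted p under 0.05, where 57.4% of all genes tested did. Without control replicate 1, 0 of 37 were called higher, where 5.47% of all genes tested were, and 0 lower, where 2.16% were (7.63% in either direction). In that fit 8 of the 37 (28.9% of all genes tested) had an unadjusted p under 0.05. The highest log2 fold changes of the 37 in that fit were 0.97 for Gopc, 0.94 for Spink2 and 0.61 for Izumo4. The lowest was -0.52, for Spata16. With a single control the spread is estimated from the TSSK2-IP libraries alone, and the lone control is assumed to vary like them.

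**Figure D3:**
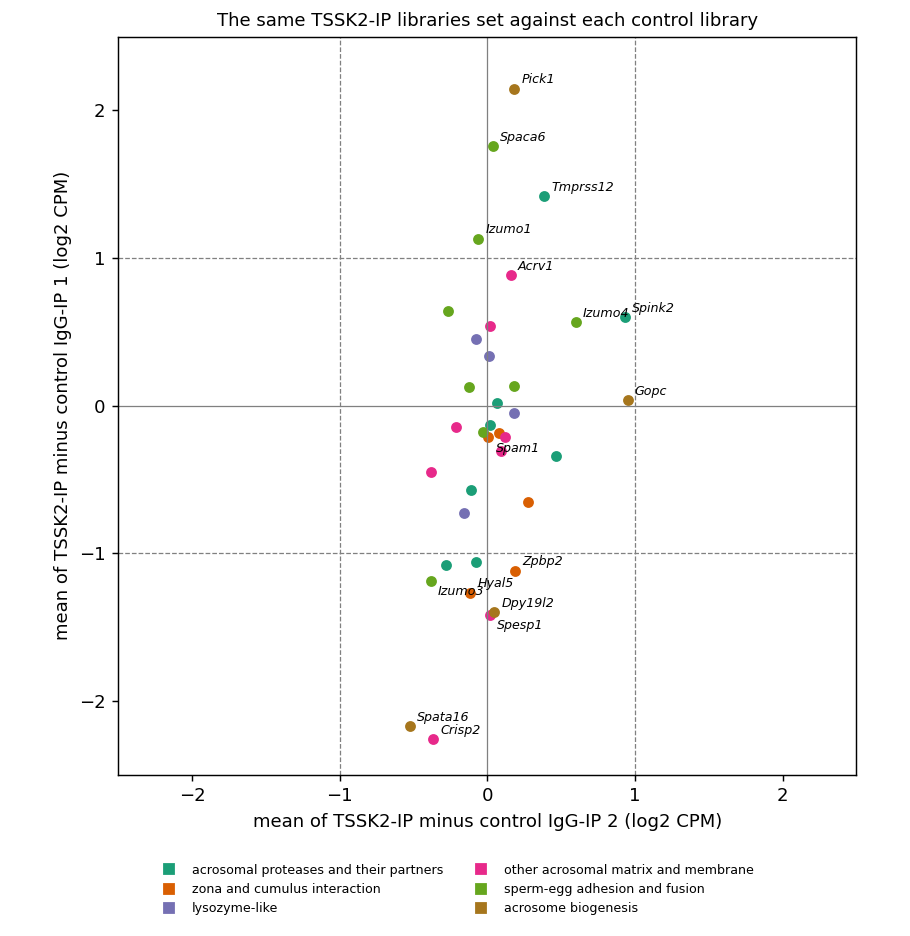
Mean of the TSSK2-IP libraries minus control IgG-IP replicate 2 (horizontal) and minus control IgG-IP replicate 1 (vertical), in log2 CPM, for the 37 mRNAs coloured by role, with dashed lines at -1 and 1; both axes share the TSSK2-IP libraries. The points form a vertical band from -2.26 to 2.15 that spans only -0.52 to 0.95 horizontally.

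The control libraries were at least 2-fold apart for 10 of the 37 mRNAs (27.0%, beside 40.8% of all genes tested). Control replicate 1 was the higher one for 6 (Crisp2, Dpy19l2, Hyal5, Spata16, Spesp1 and Zpbp2) and the lower one for 4 (Izumo1, Pick1, Spaca6 and Tmprss12). The TSSK2-IP libraries were at least 2-fold apart for 0 of 37, beside 4.95%, and their log2 difference stayed between -0.64 and 0.44. Abundant mRNAs tended to be higher in control replicate 1. Across the 37 mRNAs, Spearman's rho between the mean level in TSSK2-IP and the log2 difference of the controls was 0.49, beside 0.56 over all genes tested, and these genes share the same libraries. In the most abundant of 10 equal bins of all genes tested the median difference was 1.03, and in the least abundant it was -1.10. Crisp2 at 1.89, Spata16 at 1.65, Dpy19l2 at 1.45 and Spesp1 at 1.44 fell in the most abundant bin, above its upper quartile of 1.37. Pick1 at -1.96 and Spaca6 at -1.72 fell in bin 8, far under its lower quartile of -0.28.

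**Figure D4:**
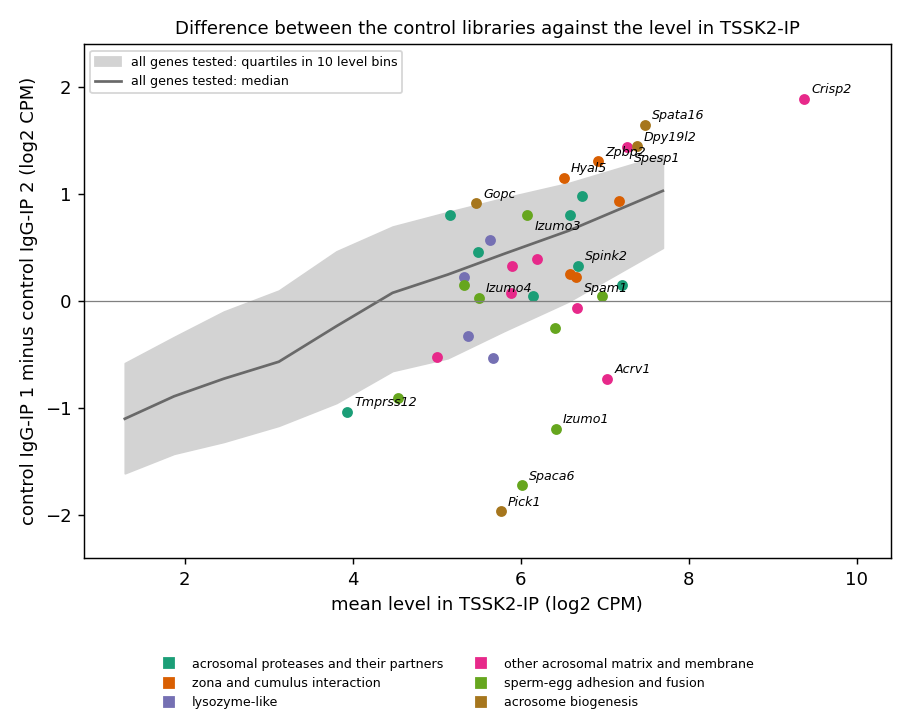
Log2 difference between control IgG-IP replicate 1 and replicate 2 against the mean level in TSSK2-IP (log2 CPM) for the 37 mRNAs, coloured by role, with the median (line) and quartiles (grey) of all genes tested in 10 bins of level. Crisp2, at 1.89, is at the upper right, and Pick1, Spaca6 and Izumo1 are among the mRNAs under the grey band.

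The mRNAs were short. The median length of the longest protein-coding transcript was 1252 bases, beside 3196 for all genes tested, and the median GC content was 49.1%, beside 49.8%. Among the 37, the log2 difference of the controls had a Spearman's rho of -0.45 with GC content and of 0.43 with transcript length, where all genes tested had -0.03 and -0.01. The difference of TSSK2-IP from control replicate 2 had a rho of 0.01 with GC content and 0.11 with length, where all genes tested had -0.20 and -0.09. The part of these features in the results was not tested.

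A further 30 genes known for the acrosome or fertilization and not among the 37 were read in the same fit. All 30 were tested, 0 were called in either direction (0.693% of all genes tested were), and 10 were above 0 and 20 below. Their median log2 fold change was -0.46, beside -0.02 over all genes tested. That median was -0.15 without control replicate 1 and -0.72 without control replicate 2. Those with the smallest p on the lower side were Gba2, a glucosylceramidase, with 49.1 and 39.0 normalized CPM in TSSK2-IP and 219 and 65.3 in control IgG-IP, and Csnk2a2, a casein kinase catalytic subunit, with 80.4 and 61.8 against 270 and 80.4. Their log2 fold changes were -1.69 and -1.30 (edgeR, adjusted p = 0.249 and 0.355). On the higher side they were Cd46, a complement regulator of the inner acrosomal membrane, at 1.13 and Nectin2, an adhesion protein, at 0.66 (edgeR, adjusted p = 0.397 and 0.480). Cd46 had 33.4 and 41.3 normalized CPM in TSSK2-IP and 6.08 and 28.5 in control IgG-IP. Leaving out control replicate 1 gave -0.56 for Gba2, -0.17 for Csnk2a2, 0.40 for Cd46 and 0.38 for Nectin2. Without control replicate 2, 3 of the 30 were called higher and 14 lower, where 19.4% and 17.9% of all genes tested were, and without control replicate 1, 1 was called higher and 0 lower, where 5.47% and 2.16% were. These shares were not tested against each other.

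Tssk2 itself, the mRNA of the precipitated protein, had 754 and 754 counts in TSSK2-IP and 3589 and 891 in control IgG-IP. Its log2 fold change was -1.35 (edgeR, adjusted p = 0.372), and its level does not report on the precipitation of the protein. Like Spata16 and Crisp2, it was higher in control replicate 1 than in the other 3 libraries.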

How the data were processed

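RNA from 2 TSSK2-IP and 2 control IgG-IP samples of mouse testis germ cells was sequenced strand-specifically, with rRNA left in. The authors trimmed reads (Trimmomatic 0.39), mapped them to GRCm38 (STAR), counted them per gene (featureCounts 2.0.3) and deposited raw counts without normalization. The strand setting and the treatment of reads in overlapping genes are not given in the sources used here. In the co-IP protocol the lysate was split between the TSSK2 and IgG beads, but which numbered libraries share a lysate is not stated. Of 21936 identifiers, 21817 were named through GENCODE vM21 and 119 were not. Counts were fitted with edgeR 4.0.16 in R 4.3.3 (filterByExpr, TMM, glmQLFit, glmQLFTest, Benjamini-Hochberg over 14722 genes). The smallest p of a permutation of these libraries is 0.333, and each p-value therefore relies on edgeR's pooling of the spread over genes (common dispersion 0.135). Alternatives were DESeq2 1.42.0, its size factors, upper-quartile scaling, no filter, at least 10 counts in every library, the replicate number as a block, and each library left out. Levels per kb divide by the union of annotated exons. Shared sequence was searched with BLAST+ 2.17.0. Members, role groups and lists were chosen with earlier results of these data known. All 37 members could be named, with full statistics for the smallest p of each role group and the highest and lowest fold change, and of the other genes the 2 smallest p in each direction were named. DDX4-IP libraries were not analysed here.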

Additional observations from a re-analysis of the deposited data

How the results depend on the processing

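No call on the 37 acrosome and fusion mRNAs changed under the alternatives that used all 4 libraries, and in these 208 of 222 single-gene log2 fold changes kept their direction. Some passed 2-fold without meeting the adjusted threshold. Dpy19l2 and Spesp1 were at -1.003 and -1.025 with DESeq2, and Pick1 was at 1.16 with the replicate number as a block. The 14 that changed sign were close to 0. With DESeq2, and likewise with its size factors in edgeR, the log2 fold changes of Dcst2, Lyzl4, Prss21 and Prss37 were -0.11, -0.070, -0.13 and -0.078, and both scalings set the median of all genes tested at -0.14. Dcst2 was at -0.037 with upper-quartile scaling, and Dcst2 and Prss21 were at -0.0061 and -0.047 without a filter. With at least 10 counts in every library, Pcsk4, Spaca7 and Zp3r were at 0.0105, 0.0090 and 0.0077. The number of the 37 with an unadjusted p under 0.05 was 2 with DESeq2 (Crisp2 and Spata16), 4 with upper-quartile scaling and 2 with at least 10 counts in every library. The cause of these differences was not tested. In these settings the share of all genes tested at this p was not counted, so the numbers cannot be set against it. Over all genes tested, the number called higher and lower was 102 and 0 in the reported edgeR fit, 152 and 7 with DESeq2, 20 and 0 with upper-quartile scaling, 283 and 24 without a filter and 29 and 0 with at least 10 counts in every library.

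With the replicate number as a block, 0 of the 37 were called in either direction, their median log2 fold change was -0.05 and that of acrosome biogenesis was -0.09, and over all genes tested 274 were called higher and 3 lower. The deviations of libraries with the same number correlated at 0.13, and although the co-IP protocol splits a lysate between the TSSK2 and IgG beads, whether libraries of the same number share one is not stated. The block changed no call on the 37 or on the 30 further genes. It did change which of the 37 had the smallest adjusted p. This was Pick1, with a log2 fold change of 1.16 (edgeR, adjusted p = 0.341), while Spata16 was at -1.35 (edgeR, adjusted p = 0.631).

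Leaving out each library in turn, 110 of 148 single-gene values kept their direction with no call, and 25 changed sign. The others gained a call, all without control IgG-IP replicate 2. The number of the 37 called ranged from 0 to 4 higher and from 0 to 9 lower, and that with an unadjusted p under 0.05 from 0 to 24. The highest of these counts came without control IgG-IP replicate 2, where 19.4% of all genes tested were called higher, 17.9% were called lower and 57.4% had an unadjusted p under 0.05. Of the 30 further genes, 0 to 3 were called higher and 0 to 14 lower. The median ranged from -0.23 to 0.031 for the 37, -0.28 to 0.057 for proteases and their partners, -0.71 to 0.084 for zona and cumulus interaction, -0.020 to 0.20 for lysozyme-like, -0.31 to 0.031 for other matrix and membrane, -0.038 to 0.31 for adhesion and fusion and -0.73 to 0.12 for acrosome biogenesis, so that each changed sign. The log2 fold changes that changed sign ranged from -0.22 to 0.21 for Dcst2, -1.45 to 0.052 for Dpy19l2, -0.35 to 0.11 for Eqtn, -0.0046 to 0.97 for Gopc, -0.053 to 1.09 for Izumo1, -0.067 to 0.41 for Lyzl1, -0.10 to 0.19 for Lyzl4, -0.20 to 0.080 for Pcsk4, -0.39 to 0.48 for Prss21, -0.15 to 0.23 for Prss37, -0.27 to 0.12 for Spaca7, -0.26 to 0.017 for Spam1, -1.47 to 0.024 for Spesp1, -0.23 to 0.64 for Tmem95, -0.23 to 0.084 for Zp3r, -0.71 to 0.29 for Zpbp and -1.17 to 0.19 for Zpbp2.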
